A study of Mus musculus with 2 samples.

Results

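The 10 genes described here encode subunits of the Polycomb repressive complexes in mouse. They were taken as a named list by function, drawn up with earlier results of these data known, out of 21501 protein-coding genes with a known strand. Ezh1, Ezh2, Eed, Suz12 and Jarid2 belong to Polycomb repressive complex 2 (PRC2), and Rnf2, Ring1, Bmi1, Cbx7 and Pcgf6 to Polycomb repressive complex 1 (PRC1). The question was where CHD2, a chromodomain helicase that remodels nucleosomes, was bound at these genes. It was measured by chromatin immunoprecipitation with an antibody to CHD2, followed by sequencing, in ES-E14, a male embryonic stem cell line of mouse strain 129/Ola. There was 1 group of 2 biological replicates, with no treatment, genotype or other cell type beside it, so all comparisons are between genes, peak lists and replicates. The labels give both replicates the same biosample, so whether they were separate cultures is not stated. All cells were of 1 line, and the identity of the cells could not be checked against marker genes, since peak lists hold no expression values.

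Polycomb complexes keep developmental genes silent. PRC2 methylates histone H3 through its catalytic subunit, Ezh2 or the related Ezh1, which is active only together with Eed and Suz12. PRC1 ubiquitylates histone H2A through Rnf2 (RING1B) or Ring1 (RING1A), each paired with a Pcgf subunit such as Bmi1 or Pcgf6. Forms of PRC1 with a Cbx subunit bind the histone mark that PRC2 makes, and Cbx7 is the main Cbx subunit of mouse embryonic stem cells.

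Peaks came from 5 lists on the mouse build mm10. The optimal list (8282 peaks) and the conservative list (7530 peaks) were derived by the authors from both replicates, and every peak at these genes in either list carried the signal of a peak of the pooled list. The pooled list and the list of each replicate are relaxed lists, which run on into background up to 300000 peaks, and only their 20000 strongest were counted. The signal of a peak is the caller's own value, so it was compared only within 1 list, and ranks (1 for the strongest peak) were set side by side between lists. At rank 20000 the signal was 13.4 in the pooled list, 8.09 in replicate 1 and 7.87 in replicate 2. Among their top 20000 peaks, 40.5% of those of replicate 1 overlapped one of replicate 2, and 40.7% the other way. Promoter peaks were those whose summit was no more than 1 kb from the outermost 5′ end of a gene. Locus peaks were those with the summit in the gene body or the 10 kb on either side.

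The promoter sequences of 6 of the genes and 1 CHD2 summit are shown as examples of genes with promoter peaks in many, few or none of the 5 lists. Ezh2 and Eed had promoter peaks in all 5 lists, Suz12 and Pcgf6 in 4, Jarid2 in 2 and Bmi1 in none. Each promoter window is that of the RefSeq promoter table and runs from 250 bases before a transcription start to 50 after it, written 5′ to 3′ along the gene. For Cbx7, whose table start lies 38497 bp inside the gene from the outer 5′ end, the 101 bases around the mm9 summit near that outer end are given in its place. Capitals mark exact matches to CCAAT (the NFY core), which reads ATTGG on the other strand. They also mark the Sp core, GGGCGG, which reads CCGCCC on the other strand. The NRF1 core, TGCGCA, reads the same on both strands. So does the E-box, CACGTG. Capital runs longer than a motif hold adjacent or overlapping copies of it.
Ezh2 promoter, chr6:47594981-47595280, minus strand, GRCm38.p6: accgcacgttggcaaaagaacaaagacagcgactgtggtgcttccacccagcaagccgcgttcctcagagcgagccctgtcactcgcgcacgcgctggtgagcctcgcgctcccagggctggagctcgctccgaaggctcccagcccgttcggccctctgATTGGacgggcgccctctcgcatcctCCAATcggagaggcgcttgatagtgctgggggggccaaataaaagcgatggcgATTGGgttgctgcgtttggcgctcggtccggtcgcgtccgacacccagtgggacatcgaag
Eed promoter, chr7:89980927-89981226, minus strand, GRCm38.p6: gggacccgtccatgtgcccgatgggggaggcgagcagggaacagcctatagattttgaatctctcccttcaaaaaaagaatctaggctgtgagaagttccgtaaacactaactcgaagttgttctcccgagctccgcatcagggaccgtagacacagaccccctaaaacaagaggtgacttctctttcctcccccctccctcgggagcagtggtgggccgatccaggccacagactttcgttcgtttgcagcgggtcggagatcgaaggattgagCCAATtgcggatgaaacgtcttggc
Suz12 promoter, chr11:79992856-79993155, plus strand, GRCm38.p6: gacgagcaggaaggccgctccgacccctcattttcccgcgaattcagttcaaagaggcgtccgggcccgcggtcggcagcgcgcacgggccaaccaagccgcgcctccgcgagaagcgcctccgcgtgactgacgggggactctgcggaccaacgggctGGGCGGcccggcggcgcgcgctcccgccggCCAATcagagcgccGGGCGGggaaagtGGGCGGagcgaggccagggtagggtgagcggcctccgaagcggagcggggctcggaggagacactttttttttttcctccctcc
Jarid2 promoter, chr13:44730524-44730823, plus strand, GRCm38.p6: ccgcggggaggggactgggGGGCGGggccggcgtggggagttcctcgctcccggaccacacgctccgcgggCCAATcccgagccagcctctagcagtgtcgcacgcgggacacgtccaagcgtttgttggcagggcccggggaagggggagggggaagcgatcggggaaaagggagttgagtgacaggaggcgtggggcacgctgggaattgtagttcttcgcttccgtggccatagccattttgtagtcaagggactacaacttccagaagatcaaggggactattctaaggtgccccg
Pcgf6 promoter, chr19:47050857-47051156, minus strand, GRCm38.p6: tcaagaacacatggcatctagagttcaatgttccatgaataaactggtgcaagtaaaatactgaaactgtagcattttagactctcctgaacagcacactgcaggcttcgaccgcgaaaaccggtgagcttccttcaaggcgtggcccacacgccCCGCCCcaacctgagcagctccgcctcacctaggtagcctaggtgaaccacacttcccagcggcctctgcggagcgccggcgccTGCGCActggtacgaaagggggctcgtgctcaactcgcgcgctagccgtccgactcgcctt
Bmi1 promoter, chr2:18676768-18677067, plus strand, GRCm38.p6: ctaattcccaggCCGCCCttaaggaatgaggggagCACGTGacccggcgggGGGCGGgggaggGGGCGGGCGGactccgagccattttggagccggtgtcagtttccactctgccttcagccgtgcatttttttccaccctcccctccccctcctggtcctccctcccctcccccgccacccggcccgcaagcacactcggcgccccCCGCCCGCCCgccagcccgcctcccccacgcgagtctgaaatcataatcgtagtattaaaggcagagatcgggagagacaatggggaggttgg
Cbx7 summit window, chr15:79801585-79801685, plus strand, mm9: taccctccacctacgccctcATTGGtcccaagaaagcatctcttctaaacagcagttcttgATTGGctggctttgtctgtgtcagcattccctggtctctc

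CHD2 had a promoter peak in the optimal list at 3 of the 10 genes, Ezh2, Eed and Cbx7, against 14.1% of all protein-coding genes. In the conservative list the count was 5 of 10, against 13.6%, with Suz12 and Pcgf6 added. The pooled list gave 9 of 10, against 24.3%, with Bmi1 the 1 gene left out. Replicate 1 gave 6 of 10, against 21.2%, and replicate 2 gave 7 of 10, against 23.6%. The replicates shared Ezh2, Eed, Suz12, Cbx7 and Pcgf6. Ezh1 was counted in replicate 1 alone, and Jarid2 and Ring1 in replicate 2 alone. Replicate 1 had a Jarid2 peak (signal 9.24, rank 13294) 1005 bp before the 5′ end, just outside the 1 kb window. No test was made, since 10 named genes are not replicates of a condition and they were listed with results of these data known.

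The RefSeq promoter windows of the 10 genes were rich in CpG, and genes with windows in the same CpG range were bound more often than all genes. The ratio of observed to expected CpG in the 300-base promoter window had a median of 0.89 in the 10 genes, from 0.71 at Bmi1 to 1.09 at Suz12, against 0.58 in 17492 protein-coding promoters. Within that range of CpG lay 6222 genes. Of these, 25.7% had a promoter peak in the optimal list, 24.9% in the conservative list, 41.8% in the pooled list, 37.3% in replicate 1 and 40.8% in replicate 2. The 3 of 10 of the optimal list thus stood close to genes of like CpG, while the counts of the other lists stood above them by a margin that was not tested. For Cbx7, 1 of these 3, the ratio of 0.99 is that of the window at the table start, not of the bound outer 5′ end. The 101 bases around the mm9 summit near that outer end, a shorter window, had a ratio of 0.17. For the 6222 genes too, CpG was taken at a table start and peaks at the outer 5′ end.

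**Figure D1:**
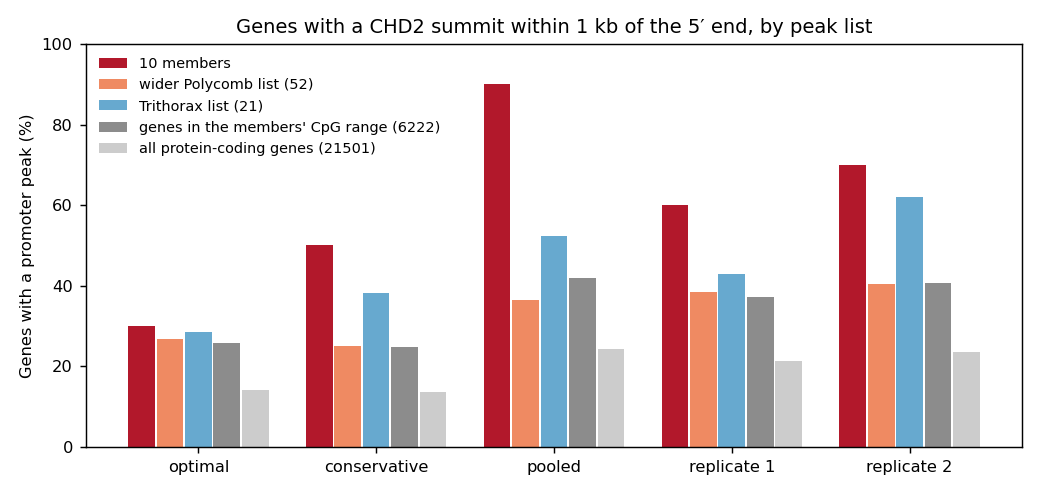
Percent of genes with a CHD2 summit within 1 kb of the 5′ end (vertical axis, from 0 to 100%) in each of 5 peak lists. Bars show the 10 Polycomb genes, a wider Polycomb list of 52, a Trithorax list of 21, the 6222 genes in the promoter CpG range of the 10 and all 21501 genes. The bars of the 10 genes run from 30.0% in the optimal list to 90.0% in the pooled list, and all genes from 13.6% to 24.3%.

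Of the PRC2 genes, Eed had the strongest promoter peak in the optimal list. Eed is the subunit that binds the trimethylated histone tail. Its peak at chr7:89981051-89981410 had a signal of 32.3 and rank 3650, with the summit 255 bp before the 5′ end. In the replicates' own lists this peak had a signal of 15.5 at rank 4438 in replicate 1 and 14.4 at rank 5369 in replicate 2. The ranks lay within 1.21-fold of each other, the closest pair of the 9 genes with a peak in both replicates. Over 5711 protein-coding genes with a promoter peak in both replicates, at least 1 of them within rank 20000, the median ratio was 2.42, with quartiles of 1.47 and 5.42. Rnf2 is outside that set, since neither of its replicate peaks was within rank 20000.

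Eed held more CHD2 peaks besides. A second optimal peak (signal 19.7, rank 6809) had its summit 568 bp inside the gene, and both replicates placed a peak within 2 bp of it, with signals of 9.67 in replicate 1 and 8.67 in replicate 2. A further optimal peak, at chr7:89952890-89953249, had a signal of 25.0 and rank 5229. Its summit lay 1584 bp past the 3′ end of Eed, and the nearest protein-coding start, that of Hikeshi, was 11847 bp away. Signals there were 13.2 in replicate 1 and 13.9 in replicate 2, at ranks 5933 and 5755, so Eed was marked at both ends in both replicates. The mm9 list had a peak of signal 43.3 at the 3′ side of Eed as well, where its annotation (GENCODE M1) has no gene, and none at the promoter.

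Ezh2, the catalytic subunit of PRC2 in dividing cells, had 3 optimal peaks within 1 kb of its 5′ end. The strongest, at chr6:47594904-47595263, had a signal of 21.6 and rank 6239. Its summit lay 186 bp inside the outer 5′ end but 54 bp before the start in the RefSeq promoter table, within the window printed above. Replicate 1 gave it a signal of 15.2 at rank 4612, and replicate 2 a signal of 8.82 at rank 15088 with the summit 112 bp inside the gene. Replicate 2 thus counted Ezh2 among its top 20000 peaks but not among the 8282 strongest. The other two optimal peaks had signals of 13.0, 214 bp before the 5′ end, and 6.13, 440 bp before it. In the pooled list the same peaks ranked 21994 and 246899, so both were listed as optimal while stronger pooled peaks at other promoters, such as that of Ezh1, were not. The long non-coding gene F830010H11Rik also starts within 1 kb of these summits, and which of the 2 genes the peaks belong to cannot be told apart.

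Suz12, the scaffold subunit of PRC2, had no optimal peak, and its promoter peaks differed in place between lists. The conservative peak (signal 9.78, rank 7208) lay at chr11:79992333-79992692, 593 bp before the 5′ end, and ranked 52787 in the pooled list. The strongest pooled peak (signal 15.3, rank 14592) lay at chr11:79992857-79993216, 69 bp before the 5′ end. Replicate 1 had its strongest promoter peak 65 bp before the 5′ end (signal 11.0, rank 8500), and replicate 2 had it 545 bp before (signal 9.15, rank 13836). None of the 4 locus peaks of replicate 1 overlapped any of the 2 of replicate 2. Both replicates thus counted a promoter peak at Suz12, but not the same one.

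Jarid2, an accessory subunit that helps to bring PRC2 to its sites, had its promoter peak in the pooled list (signal 22.6, rank 6767) at chr13:44730520-44730879, 74 bp before the 5′ end. Replicate 2 had it at rank 4341 with a signal of 16.2, and replicate 1 only at rank 48391 with a signal of 6.4. The summits of both lay 70 bp before the 5′ end, so the place was the same and the rank differed by 11.1-fold. Ezh1, the catalytic subunit that is more abundant in cells that no longer divide, showed the reverse order. Its peak at chr11:101225808-101226167 had a pooled signal of 25.4 and rank 5492, with rank 3280 and a signal of 18.6 in replicate 1 and rank 37379 and a signal of 6.2 in replicate 2. The summits lay 490 and 471 bp inside the gene. Neither promoter was in the optimal or conservative list, although in the pooled list both outranked the Ezh2 promoter, which was in both. Over the whole list, 1590 of the 8282 strongest pooled peaks overlapped no optimal peak.

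**Figure D2:**
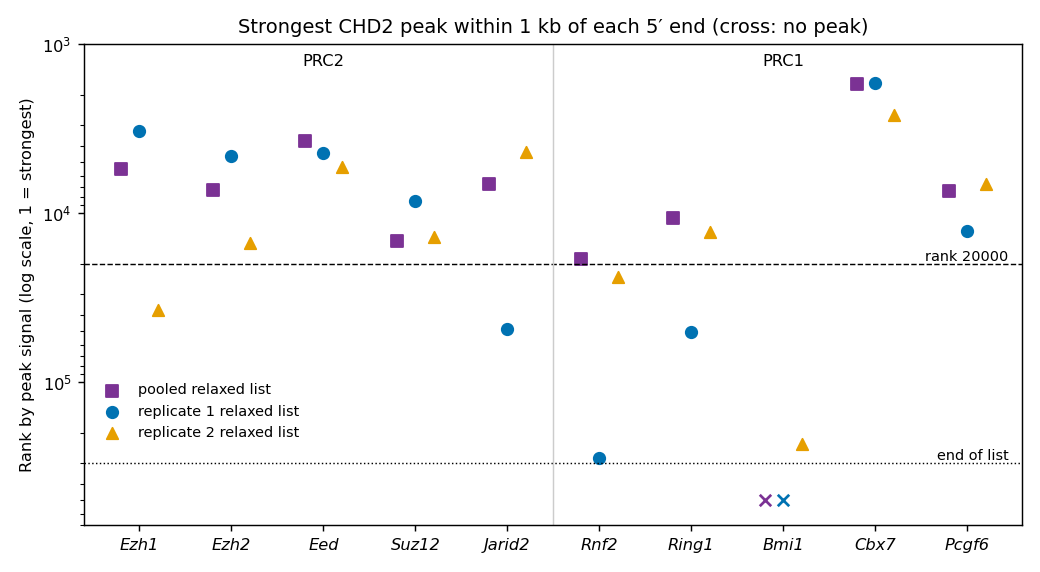
Rank by signal (log axis, strongest at the top) of the strongest CHD2 peak within 1 kb of each 5′ end in the pooled list and in each replicate's list, with a dashed line at rank 20000 and a dotted line at the end of the lists. Eed, Cbx7, Suz12 and Pcgf6 have ranks within 2-fold in the replicates, and Ezh1, Jarid2 and Rnf2 differ by over 11-fold. At Rnf2 the replicate 1 rank is that of a signal of 3.76, close to the lowest of that list, 3.65. At Suz12 the ranks are those of different peaks, 65 bp before the 5′ end in replicate 1 and 545 bp before it in replicate 2. A cross marks Bmi1, which had no peak in the pooled list or in replicate 1.

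Of the PRC1 genes, Cbx7 had the strongest promoter peak of all 10 in the optimal list. The peak at chr15:79971022-79971381 had a signal of 55.3 and rank 1724, with the summit 59 bp before the outer 5′ end. In the replicates it had signals of 28.7 at rank 1691 in replicate 1 and 21.6 at rank 2648 in replicate 2. Among 2891 optimal promoter peaks at protein-coding genes, with a median signal of 40.2, the Cbx7 peak was stronger than 62.6%. Eed was stronger than 39.1% of them and Ezh2 than 16.2%. These 2891 are peaks, not genes, and include weaker second peaks of a gene, such as those at Ezh2 and Eed. By its strongest promoter peak, only Cbx7 of the 3 genes stood above the median of these peaks.

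The outer 5′ end of Cbx7 is not the start of its transcript in the RefSeq promoter table, which lies 38497 bp further in. For 9.95% of 17492 genes in that table, the nearest table start was over 1 kb from the outer end. No optimal peak lay within 1 kb of the Cbx7 table start. With table starts alone, 2 of the 10 genes (Ezh2 and Eed) had an optimal promoter peak, against 15.8% of the protein-coding genes of that table. Closest was an optimal peak of signal 44.9 and rank 2288 at chr15:79933776-79934135, 1310 bp before it, with a weaker one of 19.2 at 1520 bp before. Signals at the stronger of these were 16.8 at rank 3830 in replicate 1 and 20.8 at rank 2838 in replicate 2. Weak peaks nearer the table start were counted in the relaxed lists, at 409 bp before it in replicate 1 (signal 8.88) and 556 bp after it in replicate 2 (signal 8.85).

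The strongest peak at Cbx7 was on its other side. At chr15:79914011-79914370 the optimal signal was 107 at rank 707, with 43.1 at rank 993 in replicate 1 and 65.7 at rank 521 in replicate 2. Its summit lay 1613 bp past the 3′ end of Cbx7 and inside Apobec3, a cytidine deaminase gene, in the RefSeq table, while the nearest protein-coding start was 22133 bp away. The mm9 list held the same 3 places, with signals of 132 past the 3′ end, 64.3 at 86 bp before the outer 5′ end and 43.0 at 37163 bp into the gene, in an intron. In all, Cbx7 had 4 optimal peaks, 12 pooled peaks, 5 of replicate 1 and 11 of replicate 2. Of these, 4 of the 5 of replicate 1 overlapped a peak of replicate 2.

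**Figure D3:**
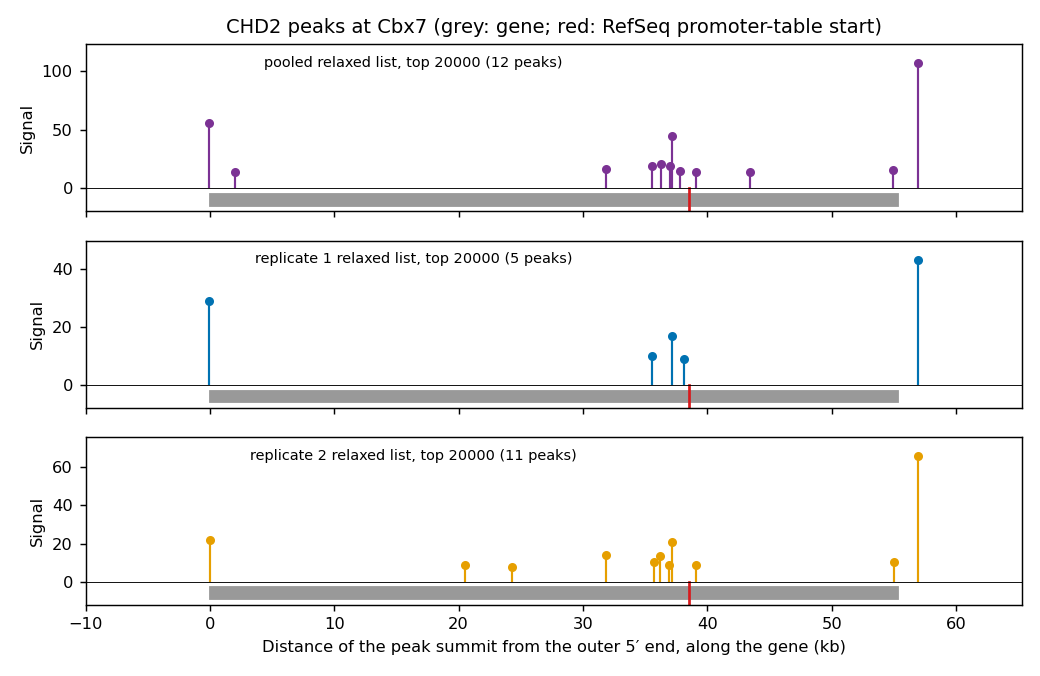
Signal of each CHD2 peak among the top 20000 (vertical axis, the caller's units, its own scale in each panel) against the distance of its summit from the outer 5′ end of Cbx7 in kb, in the pooled list and in both replicates. Peaks at the outer end, near 37 kb and past the 3′ end recur in all 3 panels, and the last of them is the tallest in each, at 107, 43.1 and 65.7.

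Pcgf6, the Pcgf subunit of a PRC1 form that contains Mga and Max and lacks the Polycomb Cbx subunits such as Cbx7, had a conservative peak but no optimal one. At chr19:47050736-47051095 its signal was 21.4 and its rank 5947, with the summit 10 bp before the RefSeq table start. Replicate 1 gave a signal of 9.34 at rank 12848, and replicate 2 a signal of 12.8 at rank 6720. The pooled rank of this peak, 7436, was next to the 7354 of the Ezh2 peak, which was listed as optimal. Of the conservative peaks, 1506 of 7530 (20.0%) overlapped no optimal peak, and the Pcgf6, Suz12 and intragenic Jarid2 peaks were among these.

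Rnf2 and Ring1, the catalytic subunits of PRC1, had weak promoter peaks. At Rnf2 the pooled peak had a signal of 13.8 and rank 18723, just within the top 20000, with its summit 814 bp inside the gene. The replicate peaks fell outside it, at rank 281387 in replicate 1 (signal 3.76) and 23956 in replicate 2 (signal 7.32). At Ring1 the pooled peak had a signal of 17.8 and rank 10646, 148 bp inside the gene, with rank 50629 in replicate 1 and 12893 in replicate 2. Neither gene was in the optimal or conservative list by its promoter.

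The 1 optimal peak in the Ring1 locus was by far the strongest near any of the 10 genes, and it lay at other genes. At chr17:34031501-34031732 it had a signal of 209 and rank 235, with 112 at rank 240 in replicate 1 and 101 at rank 234 in replicate 2. Its summit was 6932 bp before the 5′ end of Ring1 but 78 bp inside Slc39a7, which encodes a zinc transporter, and Rxrb, a nuclear receptor gene, also starts within 1 kb. A pooled peak of 17.4 lay between them and Ring1, 6 bp inside H2-Ke6. A strong summit in the window of a gene can therefore be that of its neighbours, and the Ring1 locus is counted here with that limit.

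Bmi1, a Pcgf subunit of the Cbx-containing PRC1, had no promoter peak in any of the 5 lists. Its only relaxed peak within 1 kb was in replicate 2, with a signal of 3.17 at rank 232161. The pooled list had 2 peaks in its locus, with signals of 16.1 at 7140 bp into the gene and 14.9 at 395 bp before the start of Gm46725. Replicate 2 had 3 locus peaks, of which 1 lay 487 bp inside Commd3, and replicate 1 had none. Without read depths, a lack of peaks at Bmi1 shows only that none was called there.

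Over the whole loci, 4 of the 10 genes held an optimal peak (Ezh2, Eed, Ring1 and Cbx7), against 30.4% of all genes. The conservative list gave 7, against 28.8%, and the pooled list all 10, against 50.2%. Each replicate gave 8, against 48.7% of all genes in replicate 1 and 50.3% in replicate 2. The loci were longer than usual, with a median of 53.5 kb against 37.3 kb for all genes. There were 11 optimal peaks in the 10 loci, or 1.63 per 100 kb, against 0.675 over all gene loci. Ezh2, Eed and Cbx7 held 10 of these 11. The median number of optimal peaks per locus was 0 both in the 10 genes and in all genes, and that of pooled peaks was 2.5 in the 10 genes and 1 in all genes. Of the 11 optimal peaks, 6 were promoter peaks, 2 lay in the body of Cbx7, 2 past a 3′ end and 1 upstream of Ring1.

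Jarid2, with a locus of 211 kb, had the largest number of peaks in a replicate, few of them shared. It had 15 peaks in replicate 1 and 10 in replicate 2, with 2 shared, and 10 in the pooled list. The shared peaks were 13.3% of those of replicate 1 and 20.0% of those of replicate 2, against the 40.5% and 40.7% over all top 20000 peaks. The conservative list kept 1, 20969 bp into the gene (signal 22.4, rank 5706), which had a signal of 17.3 in replicate 1 and 8.45 in replicate 2. The strongest pooled peak (signal 23.1, rank 6504) lay 1924 bp before the 5′ end, where replicate 1 had a summit at 1835 bp (signal 16.2) and replicate 2 at 2115 bp (signal 13.6). None of these was in the optimal list.

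**Figure D4:**
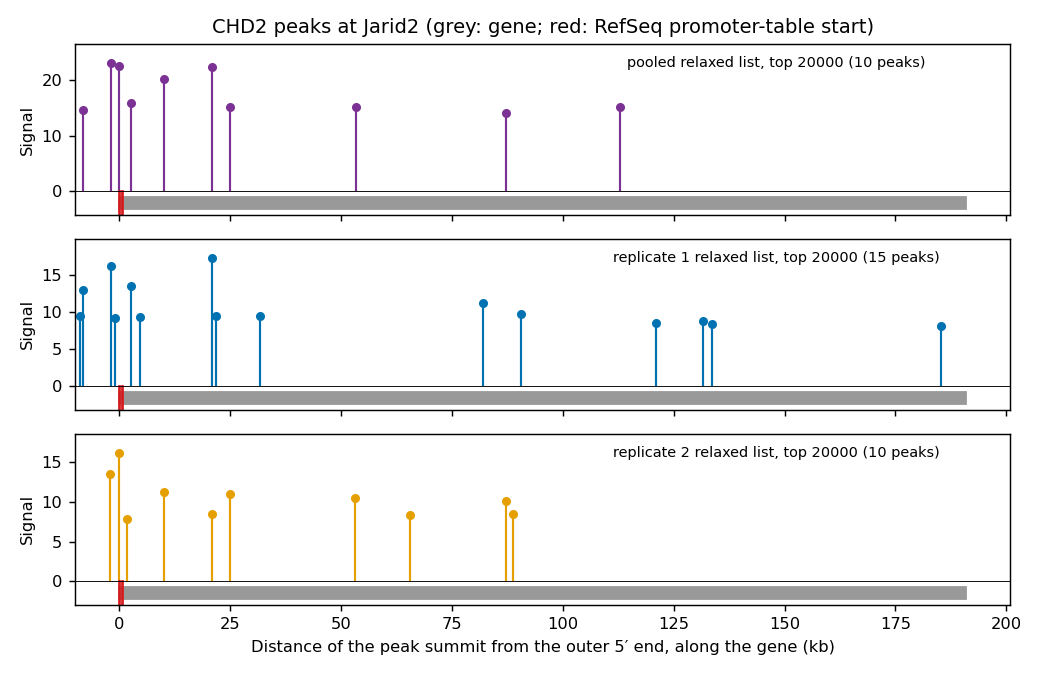
Signal of each CHD2 peak among the top 20000 (vertical axis, the caller's units, its own scale in each panel) against the distance of its summit from the 5′ end of Jarid2 in kb, in the pooled list and in both replicates. The 10 pooled, 15 replicate 1 and 10 replicate 2 peaks are spread over the gene with no pooled signal above 23.1, and the peak 74 bp before the 5′ end in the pooled list is missing from the top 20000 of replicate 1.

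**Figure D5:**
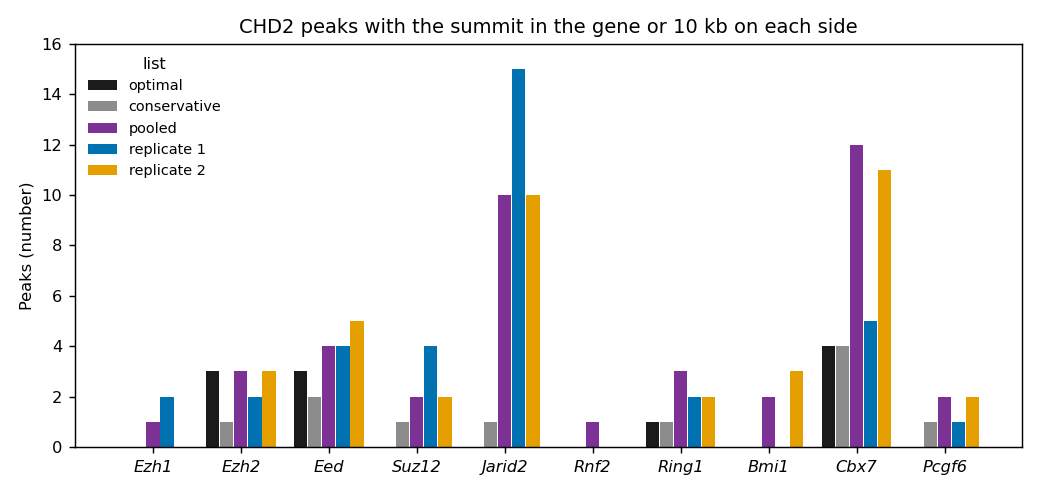
Number of CHD2 peaks with the summit in each gene or the 10 kb on either side (bars from 0), by peak list. Cbx7 has the most optimal peaks, 4, and Jarid2 the most in a replicate, 15. Ezh1, Suz12, Jarid2, Rnf2, Bmi1 and Pcgf6 have no optimal peak.

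The sequence motifs of the 10 promoter windows were compared with those of all 17492 protein-coding promoters of the same length. CCAAT, on either strand, was present in 5 of 10 (Ezh2, Eed, Suz12, Jarid2 and Cbx7), in 39.2% of all promoters and in 56.6% of the 2571 with an optimal promoter peak. Ezh2 had 3 copies, with first bases 90, 64 and 11 bp before the start. GGGCGG was present in 7 of 10, against 46.3% of all and 64.6% of bound promoters, with the most copies, 6, at Bmi1. TGCGCA was present in 3 of 10 (Ezh1, Cbx7 and Pcgf6), against 10.1% of all and 14.2% of bound promoters. CCAAT was in all 3 genes with an optimal promoter peak and in 2 of the 7 without, GGGCGG in 1 of 3 and 6 of 7, and TGCGCA in 1 of 3 and 2 of 7. The window of Cbx7 counted here surrounds its table start, not its optimal promoter peak at the outer 5′ end, so for Cbx7 these matches do not describe the bound promoter. The 2571 bound promoters too were called at the outer 5′ end and searched at a table start. For 9.95% of the 17492 genes the nearest table start lay over 1 kb from the outer end. At Eed the only CCAAT began 25 bp after the 5′ end. The optimal promoter peaks of Eed had summits 255 bp before that end and 568 bp inside the gene, and neither peak covered the match.

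Other searched motifs were rare or missing in these windows. CACGTG was found at Bmi1 alone, against 7.91% of all promoters. CCGGAAG (the ETS core, 11.9% of all promoters), AAGATGGC (the YY1 core, 3.21%), TGACGTCA (the CREB core, 2.33%) and TATAAA (the TATA box, 13.3%) were in none of the 10, again on either strand. No match to one motif overlapped a match to another. Around the mm9 summits, CCAAT was present within 50 bp of 38.2% of 4613 summits, and the Cbx7 summit near the outer 5′ end had 2 copies, both as ATTGG on the plus strand. The 3′ side summit of Eed and the other two Cbx7 summits had none of the 8 motifs. The remaining mm9 summit, the strong one in the Ring1 locus at Slc39a7 (signal 293, rank 250), had CCGGAAG, which was present at 4.94% of the mm9 summits. A match is a description of the sequence, and no binding factor was measured here.

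Some other Polycomb genes had stronger promoter peaks than any of the 10 genes. Of 52 further Polycomb genes, 14 (26.9%) had an optimal promoter peak, against 14.1% of all genes and 25.7% of genes in the CpG range of the 10. Asxl1, a partner of the Bap1 deubiquitylase, led them with a signal of 298 at rank 87, and signals of 182 in replicate 1 and 117 in replicate 2. Pcgf2, a Pcgf subunit like Bmi1, followed with 155, but its summit was at -920 bp from its 5′ end and closer to the proteasome gene Psmb3. Dcaf7, found in some PRC1 forms, had 117 with the summit 798 bp inside the gene. The factor gene Yy1 had 87.3, and Mtf2, an accessory subunit of PRC2, had 45.3. Of the 10 genes, Cbx7 at 55.3 would stand between the last pair, and Eed and Ezh2 below all 5. The promoter CpG of the 52 genes was not set beside that of the 10, so the share in that CpG range is not matched to them.

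Genes of the Trithorax and COMPASS complexes, which methylate histone H3 at active genes and work against Polycomb, gave a share of like size. They include the methyltransferases and their partners. Of 21 such genes, 6 (28.6%) had an optimal promoter peak, against 14.1% of all genes and 25.7% of genes in the CpG range of the 10. Ash2l, a shared COMPASS subunit, had the strongest (signal 65.1, rank 1396), with Kcnu1 also starting within 1 kb. Kmt2b, a methyltransferase, had 50.4, and Men1 and Psip1, partners of Kmt2 proteins, had 36.4 and 35.1. Rbbp5, a further shared subunit, had 25.1. In the pooled list the shares were 90.0% for the 10 genes, 36.5% for the wider Polycomb list and 52.4% for the Trithorax list. These stood against 24.3% of all genes and 41.8% of genes in that CpG range. In the optimal list the shares of the 10 genes, the wider Polycomb list and the Trithorax list were 30.0%, 26.9% and 28.6%. No difference between these lists was tested, and the CpG range was not matched to the wider Polycomb or Trithorax genes.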

How the data were processed

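Per the deposited descriptions, the authors derived the optimal and conservative peak lists on mm10 from each replicate's relaxed list, that of the pooled reads and a further file whose part is not explained. A separate list was made on mm9. Which caller and aligner were used is not given here. The deposited signal value of a peak is the caller's own, with no stated normalization, and read depth is unknown.

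Peaks were joined to RefSeq genes of GRCm38.p6 with Python 3.11.15, pandas 2.3.3 and numpy 2.4.6. Strand came from the RefSeq promoter table for 17492 genes and from GENCODE M1 by symbol for 4009, so 21501 of 21900 protein-coding genes (98.2%) were used. The 5′ end is the outer end of the gene. Ties in signal kept the order of the file. Overlap meant 1 bp or more. The mm9 list was read with its own genome and annotation, and no coordinate was converted. Exons and introns were not assigned on mm10.

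Named were all 10 genes, the 5 strongest of each other list, and genes starting within 1 kb of a member's summit or nearer to it. Genes further along the loci were named after their positions were seen. The members and lists were chosen with earlier results of these data known. The joins were tested on simulated data.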

Additional observations from a re-analysis of the deposited data

How the results depend on the processing

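The count of the 10 genes with an optimal promoter peak, 3, stayed at 3 with windows of 500 bp or 2.5 kb, with the nearest start only and with table starts counted beside outer ends. It was 2 with table starts alone (Cbx7 lost) and in the stronger 50% of the list (Ezh2 lost). It was 5 in the conservative list, 9 in the pooled list, 1 in the mm9 list (Cbx7) and 4 to 7 in lists of a single replicate. Genes with a locus peak, 4, became 7 in the conservative list, 10 in the pooled list and 8 with a flank of 50 kb, and 6 to 8 in single replicates. The 11 locus peaks became 40 in the pooled list, 4 with no flank, 25 with 50 kb, 5 in the mm9 list and 35 and 38 in single replicates (13 in each at the length of the optimal list). The wider Polycomb count, 14, was 9 in the stronger 50%, 7 in the mm9 list and 12 to 21 in single replicates. The Trithorax count, 6, was 11 in the pooled list, 3 in the mm9 list and 6 to 13 in single replicates. The share of all genes, 14.1%, was 13.6% in the conservative list, 24.3% in the pooled list, 10.2% in the stronger 50%, 12.6% at 500 bp, 16.2% at 2.5 kb, 12.2% with the nearest start only, 9.98% in the mm9 list, 15.4% with table starts beside outer ends, 15.8% with table starts alone and 14.2% to 23.6% in single replicates. Both table-start rules were added after seeing the data. The median pooled rank of the 10 genes, counting a missing peak as last, was 7395, and 10674 and 13364.5 in the replicates. Of all pairs of a motif and a promoter window, 20% were matches, against 5% of pairs of a motif and an mm9 summit window. These shares are not like for like, since promoter windows hold 300 bases and summit windows 101. Most of those mm9 summits were also not at the promoter of 1 of the 10 genes. No median rank of the 10 genes is given for the optimal, conservative or mm9 lists, where 5 or more genes had no promoter peak. No paired analysis was possible because there is 1 group. Peak lists without read depths limit every absence to a lack of a called peak, and 2 replicates allow no test of a single peak.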
